A study of Zea mays with 48 samples.

Results

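The top crown of maize seedlings whose shoots alone were chilled was compared with the top crown of seedlings kept warm, in 3 libraries of shoot-only chilling and 3 control libraries, 6 of the 48 libraries of the series. The members were the top-crown libraries labelled with a shoot at 4 °C and a root at 26 °C, and those labelled with shoot and root both at 26 °C. All plants were of the inbred line B73, reached the 3-leaf stage at 26 °C under 14 h of light and 10 h of darkness. Chilling lasted 24 h, and control plants stayed at 26 °C. Besides these groups, the text uses top-crown libraries of whole-plant chilling (shoot and root at 4 °C) and of root-only chilling (shoot at 26 °C, root at 0 °C), and libraries of leaf, bottom crown and root from shoot-chilled and control plants, with 3 libraries a group. The labels state neither where the top and bottom crown were divided nor the temperature the crown itself had while only the shoot was cold, nor whether a library came from 1 plant or a pool. P-values therefore measure the spread between these libraries.

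The crown of a grass seedling is the compact stem region between shoot and root, and it carries the shoot meristem and the bases from which nodal roots emerge. Maize is of tropical origin and is injured by temperatures that temperate cereals tolerate. In cereals leaves and roots can regrow from an intact crown. Cold changes transcription in plants through calcium and hormone signals and through transcription factors of the CBF/DREB family, and signals can also travel from chilled to unchilled organs. The design sets each organ's own temperature against that of the rest of the plant.

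RNA was read with a QuantSeq 3′ kit, which sequences a stretch near the 3′ end of polyadenylated RNA, so a count stands for transcripts and does not grow with transcript length. Total counts ran from 4315626 to 5099325 in the shoot-only libraries and from 5185535 to 5680364 in the control libraries, within 3449880 to 8633854 over all 48. Identifiers with at least 1 count numbered 21885 to 22427 in shoot-only libraries and 22732 to 23255 in control libraries. Both measures were lower in all 3 shoot-only libraries, and their part in the results was not tested. Levels are CPM, the share of a library's counts scaled to a common total, on TMM-adjusted library sizes. Unless another comparison is named, a change is the log2 fold change of shoot-only chilling over control, and SE is its standard error, taken from the quasi-likelihood test of edgeR. On the first principal component of the 12 top-crown libraries (34.1% of the variance) the shoot-only libraries stood at -24.4 to -6.51, between whole-plant chilling at 39.1 to 47.1 and control at -60.1 to -55.6. Root-only chilling stood at 25.3 to 39.5, next to whole-plant chilling on this component only. On the second component (24.7%) these 2 groups lay at opposite ends, root-only chilling at -59.2 to -42.9 and whole-plant chilling at 34.1 to 48.2. Shoot-only chilling stood there at 5.57 to 12.9 and control at -3.43 to 4.84. A gene is called changed at a Benjamini-Hochberg adjusted p under 0.05 over all genes tested.

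The nuclear gene models of the files could not be paired with names, so their roles cannot be given. They are described by groups that other libraries define and by a few identifiers. Genes at least 8-fold higher in bottom-crown control than in both leaf and root control, here called crown-enriched, served as the check of the tissue. These 163 genes took 2.26% to 2.37% of the counts in the top crown of shoot-chilled plants and 2.43% to 2.70% in control top crown, against 0.0257% to 0.0365% in control leaf and 0.0978% to 0.147% in control root, 2 organs whose low levels are part of the choice. Leaf-enriched genes (1741, at least 8-fold above root) took 4.33% to 4.65% in shoot-only and 4.48% to 4.91% in control top crown, beside 64.0% to 64.6% in control leaf. Root-enriched genes (897, at least 8-fold above leaf) took 8.39% to 9.01% and 8.71% to 10.3% in these top-crown groups, beside 17.9% to 20.7% in control root. The top crown thus held far less of the leaf set than leaf did, and more of the crown set than leaf or root did. The high level of the leaf set in leaf is likewise part of its choice. Control bottom crown gave the crown set 2.23% to 2.42%, near the top crown. The check therefore cannot tell the crown parts from each other.

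Shoot-only chilling changed 4235 of 17706 tested genes in the top crown, which is 23.9%. Of these, 2024 were higher (11.4% of the genes tested) and 2211 lower (12.5%). Most changes were small. The median change was 0.72 among the higher genes and -0.97 among the lower ones, and 494 higher (2.79% of the genes tested) and 1049 lower genes (5.92%) passed 2-fold, 8.71% in all. Of these, 90 higher and 162 lower genes passed 4-fold, and 25 and 36 passed 8-fold. Calls of at least 2-fold made up 36.4% of all calls in the top crown, 37.1% in bottom crown, 64.6% in leaf and 69.5% in root under the same treatment. The median SE was 0.22, 0.23, 0.28 and 0.31 in these tissues, and a larger SE leaves fewer small changes called. Its part in these shares was not tested. The median size of change over all genes tested was 0.37, 0.40, 0.46 and 0.49. The split between higher and lower genes depended on scaling. With library size alone 1400 genes were higher and 2865 lower, and the median over all genes stood at -0.15, against -0.04 with TMM scaling. Without shoot-only replicate 3 the call count was 2689.

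Calls also differed with the level of the gene. Tested genes were split into 4 bins of equal size by their mean level. In the lowest bin (median 2.84 CPM) 4.97% were higher and 11.7% lower under shoot-only chilling, and in the second 6.91% and 13.7%. In the third bin 12.2% were higher and 13.7% lower. In the highest bin (median 75.1 CPM) 21.6% were higher and 10.9% lower, an order that turned with library size alone, where 14.4% were higher and 15.2% lower. In the lowest bin more genes were lower than higher under each of the 3 scalings tried. With TMM scaling 279 of the 1000 most abundant genes were higher and 105 lower, and 18 and 17 of these passed 2-fold.

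**Figure D1:**
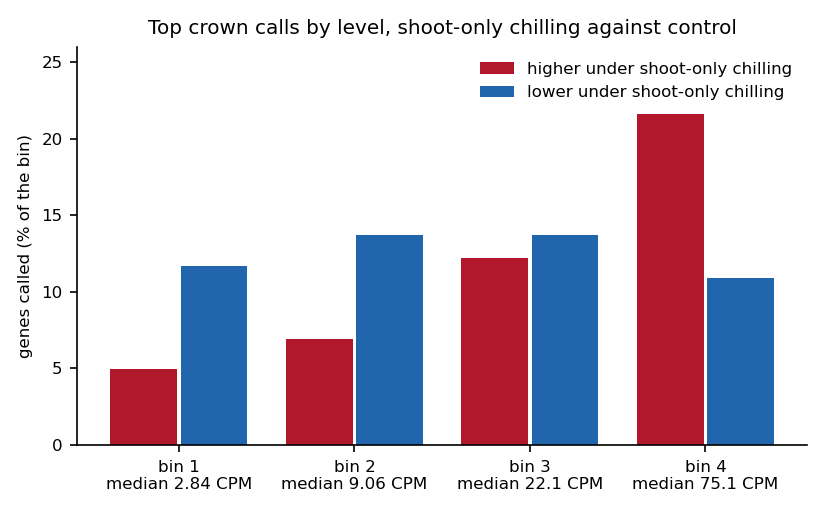
Share of tested genes called higher (red) or lower (blue) in the top crown under shoot-only chilling, by bin of mean level (x axis, median CPM). The share called higher is 4.97% in the lowest bin and 21.6% in the highest with TMM scaling, which is plotted. With library size alone, not plotted, it is 3.70% and 14.4%, and more genes of the highest bin are lower than higher.

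The largest rise among nuclear genes of at least 10 CPM whose libraries did not overlap was that of Zm00001d011183. It had 34.2, 52.3 and 31.5 CPM in shoot-only libraries, against 0.320, 0 and 0.347 CPM in control libraries (7.30, SE 0.48, edgeR adjusted p = 1.4e-07). It was close to absent from every control library and present in every chilled one. Whole-plant chilling gave it 7.29 to 11.1 CPM and root-only chilling 37.8 to 72.0 CPM, and its level was higher under shoot-only than under whole-plant chilling (shoot-only over whole-plant 2.01, SE 0.28, edgeR adjusted p = 8.5e-05). The same gene rose in leaf, to a mean of 907 ± 319 CPM under shoot-only chilling against 19.5 ± 9.61 CPM in control (SD, n = 3 each; 5.51, SE 0.49, edgeR adjusted p = 5.0e-06). It rose in bottom crown too, to 183 ± 17.6 CPM against 1.12 ± 0.97 CPM (7.35, SE 0.61, edgeR adjusted p = 3.2e-05). In root it was at 0.60 ± 0.89 CPM under shoot-only chilling and 0.37 ± 0.17 CPM in control (0.53, 95% interval -1.68 to 2.73, edgeR adjusted p = 0.75).

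Zm00001d028548 had 19.6, 33.8 and 13.5 CPM in shoot-only libraries, against 0.640, 0.351 and 0.520 CPM in control libraries (5.40, SE 0.39, edgeR adjusted p = 1.4e-07). The groups were far apart, although the shoot-only libraries differed from each other by more than the control libraries did. Whole-plant chilling gave 30.3 to 31.4 CPM, and the difference of shoot-only from whole-plant chilling was not called (-0.45, 95% interval -0.93 to 0.03, edgeR adjusted p = 0.16).

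The largest fall under the same rule was that of Zm00001d010529, with 1.98, 2.34 and 1.87 CPM in shoot-only libraries against 36.6, 48.0 and 28.1 CPM in control libraries (-4.16, SE 0.28, edgeR adjusted p = 8.9e-08). It was lower under shoot-only than under whole-plant chilling, which gave 5.88 to 10.4 CPM (shoot-only over whole-plant -1.92, SE 0.32, edgeR adjusted p = 0.00026). Zm00001d042922 had 0.593, 1.37 and 0.233 CPM in shoot-only libraries, against 9.44, 12.8 and 15.6 CPM in control libraries (-4.01, SE 0.41, edgeR adjusted p = 3.8e-06). Its level moved with the organ and the place of the cold. Under root-only chilling the top crown held 14.7 to 24.6 CPM, a called rise over control (0.71, SE 0.26, edgeR adjusted p = 0.039). Under whole-plant chilling it was lower than in control (-1.96, SE 0.32, edgeR adjusted p = 0.00013). In root, shoot-only chilling gave 14.8 to 53.7 CPM against 2.27 to 3.53 CPM in control, a rise (3.36, SE 0.55, edgeR adjusted p = 0.00076), while the top crown and the bottom crown both fell.

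**Figure D2:**
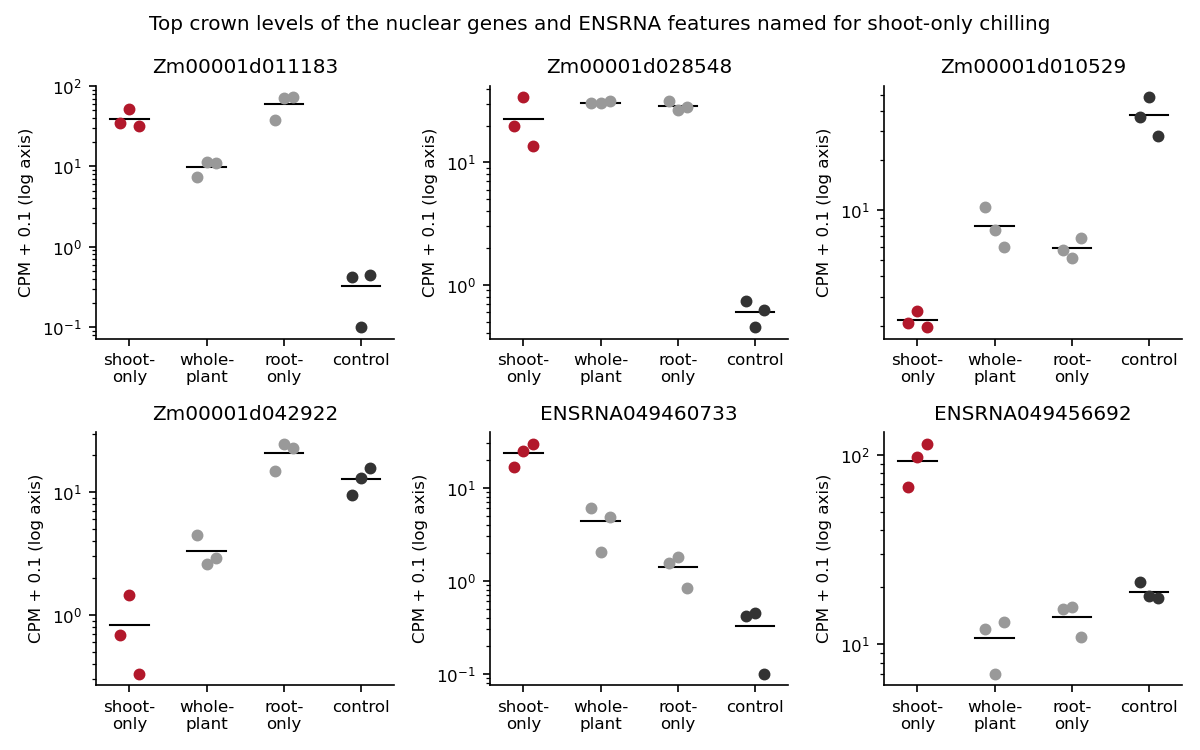
Level of 4 nuclear genes and 2 ENSRNA features in each top-crown library (CPM plus 0.1 on a log axis; bars mark the mean of 3 libraries), with shoot-only chilling in red, whole-plant and root-only chilling in grey and control in black. In each panel the shoot-only libraries lie apart from the control libraries, and ENSRNA049456692 is at 68.0 to 114 CPM under shoot-only chilling, above all other top-crown libraries shown.

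The response of the top crown was set beside those of bottom crown, leaf and root to the same treatment, which come from separate libraries. Shoot-only chilling changed 26.2% of genes tested in bottom crown, 29.4% in leaf and 22.3% in root. Of the 2024 genes higher in the top crown, 1332 (65.8%) were also called higher in bottom crown, which is 49.4% of the 2695 higher there, and 1 was called lower. In leaf 514 (25.4%) were called higher, 21.3% of leaf's 2408, and 95 lower. In root 222 (11.0%) were called higher, 12.2% of root's 1814, and 198 lower, beside backgrounds of 14.4%, 15.2% and 9.63% of all genes called higher in bottom crown, leaf and root. The 2211 lower genes gave 1108 (50.1%) also lower in bottom crown, 50.0% of its 2217, 507 (22.9%) in leaf, 22.5% of its 2250, and 387 (17.5%) in root, 16.2% of its 2382. The backgrounds there were 11.8%, 14.2% and 12.6%. These shares are of all 2024 or 2211 genes, while the backgrounds are of the genes tested in that tissue. Of the 2024, 1976 were tested in bottom crown, 1786 in leaf and 1861 in root. Of the 2211, 2145, 1763 and 2010 were tested there, so the shares are understated, most of all in leaf. The shares in the same direction stood farther above the background in bottom crown than in leaf, and closest to it in root.

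Genes changed at least 2-fold in bottom crown (9.69% of those tested there, 4.17% higher and 5.52% lower) were called mostly in the same direction in the top crown. Of 703 such risen genes tested in the top crown, 434 were called higher (61.7%), with a median of 0.82, against -0.04 over all genes tested. The number called lower was 0 with edgeR and with DESeq2, and 0 at an unadjusted p under 0.05. Of 806 genes fallen in bottom crown, 522 were called lower (64.8%) and 1 higher, with a median of -1.16. Other chilling, which shares the control libraries, moved these sets too. Under root-only chilling 384 of the 703 were higher than in control (54.6%, background 17.8%) and 32 lower. Of the 806, 393 were lower (48.8%, background 18.1%) and 50 higher. Whole-plant chilling gave 351 higher (49.9%, background 16.8%) and 48 lower of the 703. It gave 387 lower (48.0%, background 19.5%) and 17 higher of the 806. The risen set took 11.5% to 12.2% of counts in shoot-only top crown and 6.56% to 7.39% in control. The fallen set took 1.13% to 1.25% and 2.78% to 2.97%. Each pair of ranges was well separated. Across these 1509 genes the changes in both crown parts correlated at r = 0.88, a description over genes that share their 12 libraries.

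Genes that shoot-only chilling changed at least 2-fold in leaf were 19.0% of those tested there, 10.5% higher and 8.50% lower. Their median size of change was 0.48 in the top crown, where all genes tested gave 0.37, and 1.64 in leaf. The leaf figure is large by the choice of these genes, so the gap between the tissues is partly set in advance. Of 1392 genes risen in leaf and tested in the top crown, 321 were called higher (23.1%) and 83 lower (5.96%), with a median of 0.22. They took 8.80% to 9.08% of counts in shoot-only top crown, 11.1% to 11.6% under whole-plant chilling, and 6.42% to 6.66% in control. These 3 groups did not overlap, and shoot-only chilling lay between the other 2. Root-only chilling, with the shoot at 26 °C, gave 10.6% to 10.8%, above shoot-only chilling. Under root-only chilling 667 of the 1392 genes (47.9%, background 17.8%) were higher than in control and 93 (6.68%, background 18.1%) lower. Set directly against whole-plant chilling, where 25.8% of all tested genes differed (13.3% higher and 12.5% lower under shoot-only chilling), 599 of the 1392 genes (43.0%) were lower under shoot-only chilling and 67 (4.81%) higher. Of 1134 genes fallen in leaf, 331 were called lower in the top crown (29.2%) and 47 higher (4.14%), with a median of -0.35. Against whole-plant chilling 329 of these (29.0%) were higher and 67 (5.91%) lower under shoot-only chilling. Over the 2526 genes the change in the top crown correlated with that in leaf at r = 0.46.

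Genes that shoot-only chilling changed at least 2-fold in root, which stayed at 26 °C, were 15.5% of those tested there, 5.57% higher and 9.93% lower. In the top crown their median size of change was 0.40, against 0.37 over all genes tested there. In root it was 1.53, a figure that the choice of these genes makes large. Of 784 risen in root, 103 were called higher (13.1%) and 104 lower (13.3%), with a median of 0.02, near the backgrounds of 11.4% and 12.5%. Of 1461 fallen in root, 125 were higher (8.56%) and 324 lower (22.2%), with a median of -0.17, and 285 were called without shoot-only replicate 3. The correlation over these 2245 genes was r = 0.17. Genes that moved in opposite ways in leaf and root were a smaller set. Of 45 fallen in leaf and risen in root, 18 were lower in the top crown (40.0%) and 2 higher (4.44%), with a median of -0.63. Of 104 risen in leaf and fallen in root, 17 were higher (16.3%) and 13 lower (12.5%), with a median of 0.16. The share lower was that of all genes, 12.5%, and the share higher lay near 11.4%. Their order turned with library size alone, where 14 were higher and 18 lower. Of 158 that rose in both organs, 46 were higher (29.1%) and 6 lower (3.80%), with a median of 0.33. Of 154 that fell in both, 59 were lower (38.3%) and 5 higher (3.25%), with a median of -0.51.

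**Figure D3:**
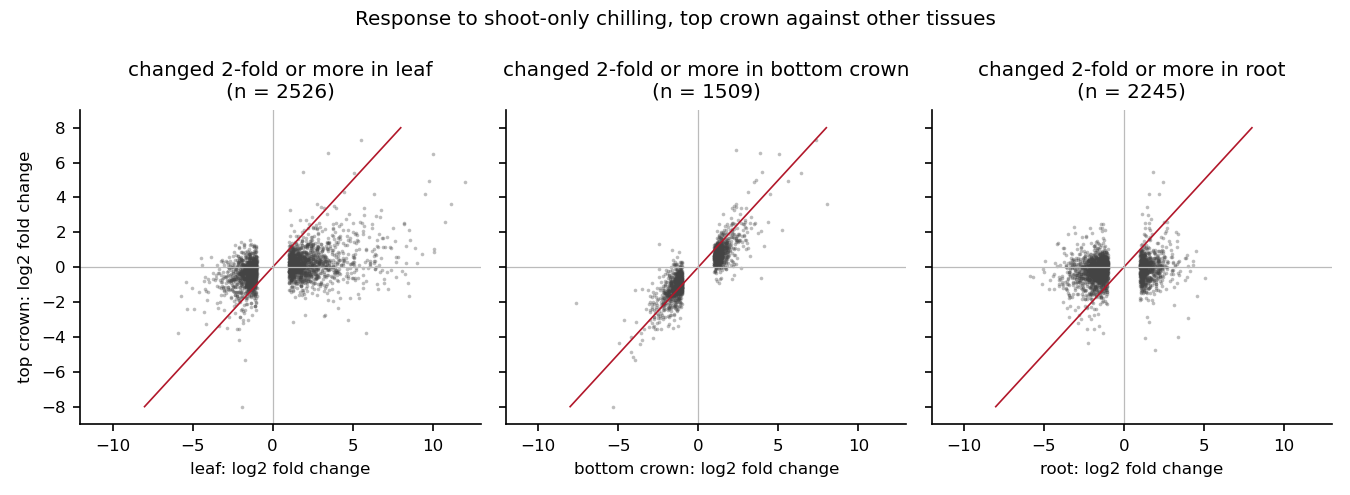
Change in the top crown (y axis) against change in leaf, bottom crown or root (x axis), as log2 fold change of shoot-only chilling over control, for genes changed at least 2-fold in that organ. The red line marks equal change, and the choice of genes by their change on the x axis favours points flatter than it. Bottom-crown genes lie closest to it (r = 0.88), leaf genes lie flatter (r = 0.46), and root genes scatter around 0 in the top crown (r = 0.17).

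Genes enriched in an organ were counted in the same way. Of 1381 leaf-enriched genes tested, 169 were higher (12.2%) and 217 lower (15.7%), with a median of -0.04, and 257 were called without shoot-only replicate 3. Of 561 root-enriched genes, 74 were higher (13.2%) and 95 lower (16.9%), with a median of -0.16. All genes tested gave 11.4% and 12.5%. Of 148 crown-enriched genes, 6 were higher (4.05%) and 64 lower (43.2%), with a median of -0.59, and 46 of the lower genes passed 2-fold. Whole-plant chilling, which shares the control libraries, gave 10 higher and 62 lower of the 148 (median -0.47), and root-only chilling 15 higher and 62 lower (median -0.53), beside 16.8% and 17.8% of all genes higher and 19.5% and 18.1% lower. In bulk tissue fewer cells of a type and less RNA per cell cannot be told apart, and this holds for every group described here.

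**Figure D4:**
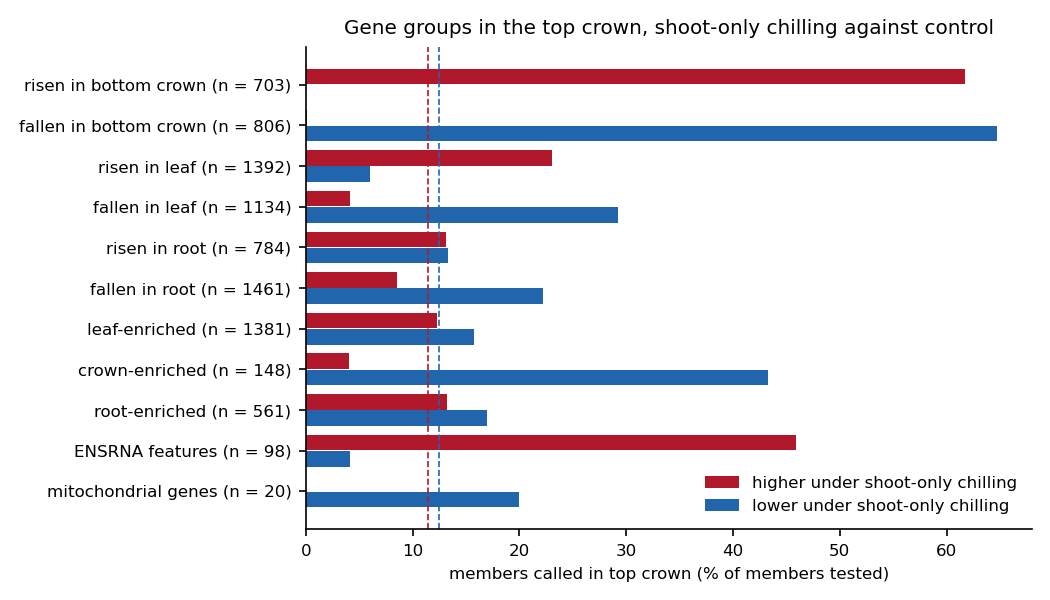
Percentage of tested members called higher (red) or lower (blue) in the top crown under shoot-only chilling, for gene groups defined in other libraries or by kind of gene. Dashed lines mark the share of all tested genes called higher (11.4%) and lower (12.5%). Bars for bottom-crown genes are the longest, and crown-enriched genes are called lower in 43.2%.

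The difference between shoot-only and whole-plant chilling in the top crown sets a root at 26 °C against a root at 4 °C under a shoot at 4 °C. Of 17706 genes 4576 differed (25.8%), with 2359 higher and 2217 lower under shoot-only chilling. With library size alone the split was 3207 higher and 1407 lower, and the median over all genes was 0.14. Without shoot-only replicate 3 the count was 3047. Zm00001d010667 was close to absent with 0, 0.781 and 0 CPM in shoot-only libraries, and had 67.6, 66.5 and 65.3 CPM in whole-plant libraries (-7.79, SE 0.42, edgeR adjusted p = 1.2e-09). In leaf the same gene had 135 to 172 CPM under shoot-only chilling, against 0.225 to 0.573 CPM in control. In control top crown it had 0.703 to 1.21 CPM, and under root-only chilling 0.970 to 2.78 CPM, so that whole-plant chilling stood far above the other top-crown groups. Zm00001d008223 followed with 0.395, 0.195 and 0 CPM in shoot-only and 34.2, 27.6 and 13.3 CPM in whole-plant libraries (-6.76, SE 0.75, edgeR adjusted p = 1.8e-05). Higher under shoot-only chilling was Zm00001d008007, with 21.9, 11.5 and 21.0 CPM against 1.33, 0.959 and 0 CPM under whole-plant chilling (4.52, SE 0.44, edgeR adjusted p = 1.3e-06). It stood at 6.56 to 9.36 CPM in control, so that it rose under the one treatment (1.11, SE 0.29, edgeR adjusted p = 0.011) and fell under the other (-3.41, SE 0.47, edgeR adjusted p = 2.3e-05). Zm00001d038251 had 27.7, 16.8 and 16.1 CPM under shoot-only and 1.10, 1.15 and 1.52 CPM under whole-plant chilling (3.99, SE 0.45, edgeR adjusted p = 1.6e-05), below its control level of 32.2 to 55.0 CPM in both.

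Whether the top crown responded differently from the other tissues was tested as an interaction, the response of the top crown minus the response of the other tissue. Against bottom crown 19 of 19595 genes differed (0.097%), 4 with a higher (0.0204%) and 15 with a lower value (0.0766%) in the top crown. The median 95% interval of such a difference reached 0.72 to either side on the log2 scale before any adjustment over genes. All 19 called differences were at least 2-fold, so the low count does not show that the other genes responded alike. The count was 1 to 35 when single libraries were left out, and it fell to 1 without top-crown shoot-only replicate 2 or 3, without top-crown control replicate 2 or without bottom-crown control replicate 3. Without bottom-crown control replicate 1 it was 2. Counts further than 1.5-fold from 19 were also 10 without bottom-crown shoot-only replicate 3, 12 without top-crown control replicate 3 and 35 without top-crown shoot-only replicate 1. Against leaf 3029 of 19260 genes differed (15.7%), 1372 higher (7.12%) and 1657 lower (8.6%) in the top crown, and against root 3884 of 20651 (18.8%), 2296 higher (11.1%) and 1588 lower (7.69%).

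Zm00001d044705 was called in all 3 of these interactions. In the top crown it had 45.5, 41.6 and 65.3 CPM in shoot-only libraries, against 22.7, 22.1 and 16.3 CPM in control libraries (1.31, SE 0.20, edgeR adjusted p = 0.0002). In bottom crown it had 20.5, 13 and 13.5 CPM under shoot-only chilling, against 77.8, 94.3 and 81.4 CPM in control (-2.43, SE 0.27, edgeR adjusted p = 4.1e-05). It rose in the one crown part and fell in the other, and the groups of each part did not overlap (interaction 3.75, SE 0.35, edgeR adjusted p = 2.7e-06). It fell in root as well, to 0 to 0.675 CPM against 5.68 to 8.39 CPM in control (-4.19, SE 0.67, edgeR adjusted p = 0.0006). Under whole-plant and root-only chilling it was below control in the top crown, at 9.20 to 15.0 CPM and 6.03 to 8.54 CPM. The call against bottom crown held when any 1 of the 12 libraries was left out. It and Zm00001d019311 were the 2 genes, of 17672 in all fits, that rose in the top crown and rose more there than in each of the other 3 tissues by the interaction tests. The count of genes that fell more in the top crown than in all 3 was 0 with edgeR, while 57 genes met the condition for a rise and 70 that for a fall at an unadjusted p under 0.05.

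Zm00001d019311 had 24.5, 38.1 and 44.3 CPM in shoot-only and 12.2, 8.26 and 10.9 CPM in control top crown (1.76, SE 0.25, edgeR adjusted p = 0.00013), while in bottom crown it had 6.03 to 9.72 CPM and 6.94 to 10.7 CPM (interaction 2.04, SE 0.38, edgeR adjusted p = 0.031). Zm00001d015239 had 2.37, 3.12 and 1.87 CPM in shoot-only and 7.04, 11.8 and 11.3 CPM in control top crown, and 3.53 to 4.40 CPM and 2.11 to 3.76 CPM in bottom crown (interaction -2.37, SE 0.42, edgeR adjusted p = 0.023). Zm00001d044677 had 9.69, 5.47 and 9.10 CPM in shoot-only and 28.2, 26.2 and 24.3 CPM in control top crown, while bottom crown held 23.5 to 35.2 CPM and 30.2 to 36.9 CPM (interaction -1.50, SE 0.26, edgeR adjusted p = 0.023). These 3 genes changed in the top crown and none of them passed the test in bottom crown. Zm00001d019311 lost its interaction call in 8 of the 12 fits that left out 1 library, and the other 2 genes in 5 each, with adjusted p of up to 0.10.

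Against leaf, Zm00001d022636 and Zm00001d039383 fell in the top crown and rose in leaf. Zm00001d022636 had 7.32, 6.25 and 4.20 CPM in shoot-only and 12.6, 18.6 and 11.4 CPM in control top crown, and 26.0 to 49.8 CPM against 0 to 0.674 CPM in leaf (interaction -8.48, SE 0.67, edgeR adjusted p = 4.1e-10). Zm00001d039383 had 7.32, 7.03 and 7.47 CPM in shoot-only and 15.8, 18.3 and 17.3 CPM in control top crown, and 15.6 to 18.6 CPM against 0 to 0.410 CPM in leaf (interaction -7.80, SE 0.55, edgeR adjusted p = 1.0e-11). Zm00001d012791 did the reverse, with 33.4, 33.6 and 37.6 CPM in shoot-only and 17.4, 12.3 and 13.3 CPM in control top crown, and 0.447 to 1.28 CPM against 2.58 to 5.73 CPM in leaf (interaction 3.66, SE 0.44, edgeR adjusted p = 3.7e-07). Zm00001d008548 had 8.11, 29.7 and 15.4 CPM in shoot-only and 2.08, 3.69 and 1.21 CPM in control top crown (interaction 4.33, SE 1.35, edgeR adjusted p = 0.036), a difference that rests on a leaf control library at 8.19 CPM beside 2 at 0.573 and 0.449 CPM. It was 1.65 without that library, leaf control replicate 1 (edgeR adjusted p = 0.64). Against root, Zm00001d048073 had 1.58, 2.34 and 1.17 CPM in shoot-only and 10.1, 14.6 and 15.1 CPM in control top crown, while root rose to 4.92 to 11.8 CPM against 0.154 to 0.974 CPM (interaction -6.89, SE 0.86, edgeR adjusted p = 1.1e-05).

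Organelle genes are the named genes of these files. They encode parts of the respiratory chain and of photosynthesis and the ribosomes that make them. The kit primes on poly(A) tails, which plant organelle RNAs mostly lack, and reads from organelle sequences copied into the nucleus cannot be told apart from them, so the levels cover a fraction of these RNAs. Mitochondrial identifiers took 0.0757% to 0.110% of counts in shoot-only libraries and 0.157% to 0.159% in control libraries, without overlap. A large part was orf99-d (ZeamMp050) alone, with 0.0306% to 0.0584% in shoot-only and 0.0588% to 0.0890% in control libraries. Whole-plant chilling gave all mitochondrial identifiers 0.0800% to 0.141% and root-only chilling 0.0940% to 0.200%. Both ranges overlapped that of shoot-only chilling. Of 208 such identifiers 20 passed the filter on low counts. Of these 20, 4 were called lower (20.0%, beside 12.5% of all genes), 18 had a change below 0, and the median was -0.67. Over all genes tested the median was -0.04. The number called higher was 0 with edgeR and DESeq2 and 0 at an unadjusted p under 0.05, while 10 were lower at that level. Between shoot-only and whole-plant chilling 0 of the 20 differed with edgeR, beside 25.8% of all genes. At an unadjusted p under 0.05, 4 were lower under shoot-only chilling. No share of all genes is given for the unadjusted level. The libraries of 7 genes did not overlap and lay lower under shoot-only chilling, beside 21.2% of all genes (41.0% in either direction).

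The called genes were orf119-a, cox3, orf101-a and rrn18. The cox3 gene (ZeamMp161), which encodes subunit 3 of cytochrome c oxidase, the last enzyme of the respiratory chain, had 22.1, 25.6 and 26.4 CPM in shoot-only and 42.2, 86.6 and 57.0 CPM in control libraries (-1.33, SE 0.41, edgeR adjusted p = 0.037). The rrn18 gene (ZeamMr004), the small ribosomal RNA, had 18.6, 28.3 and 18.7 CPM in shoot-only and 27.5, 40.4 and 54.4 CPM in control libraries (-0.89, SE 0.31, edgeR adjusted p = 0.047), ranges that overlapped. The open reading frame orf119-a (ZeamMp052) had 1.78, 3.91 and 1.63 CPM and 5.44, 5.97 and 9.19 CPM in these groups (-1.46, SE 0.39, edgeR adjusted p = 0.011). The open reading frame orf101-a (ZeamMp044) had 11.9, 11.1 and 12.4 CPM and 18.6, 23.2 and 16.1 CPM (-0.71, SE 0.25, edgeR adjusted p = 0.043). Of the genes not called, the 2 most abundant were orf99-d (ZeamMp050), with 307, 310 and 588 CPM in shoot-only and 809, 578 and 646 CPM in control libraries (edgeR adjusted p = 0.080), and the large ribosomal RNA rrn26 (ZeamMr002), with 106, 155 and 135 CPM and 167, 288 and 252 CPM (edgeR adjusted p = 0.090). None of the 4 calls held in every fit that left out 1 library: the count over the group was 0 without shoot-only replicate 1, 1 without control replicate 2 or 3, and 2 without shoot-only replicate 2.

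The other tissues were read in the same way. In bottom crown 7 of 19 mitochondrial genes were lower (36.8%, background 11.8%), the cox3 and rrn18 genes among them, with a median of -0.84. In leaf 3 of 20 were higher (15.0%, background 15.2%), with a median of 0.50. In root the count was 0 of 24 with edgeR, and 1 at an unadjusted p under 0.05. The interaction with leaf was called for 5 of 21 genes, all lower in the top crown, with a background of 8.6%: orf119-a, orf99-d, atp4 (ZeamMp051), which encodes a subunit of ATP synthase, the ribosomal protein gene rps7 (ZeamMp159), and rrn5 (ZeamMr003), the 5S ribosomal RNA. For rrn5 the top crown averaged 42.1 ± 11.7 CPM under shoot-only chilling and 42.8 ± 10.4 CPM in control, while leaf averaged 42.5 ± 13.3 CPM and 11.7 ± 4.08 CPM (SD, n = 3 each; interaction -1.86, SE 0.41, edgeR adjusted p = 0.0021). The rrn5 interaction was the one of the 5 that kept its call whichever library was left out. The interaction with bottom crown was called for 0 of 20 with edgeR, and 1 at an unadjusted p under 0.05.

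**Figure D5:**
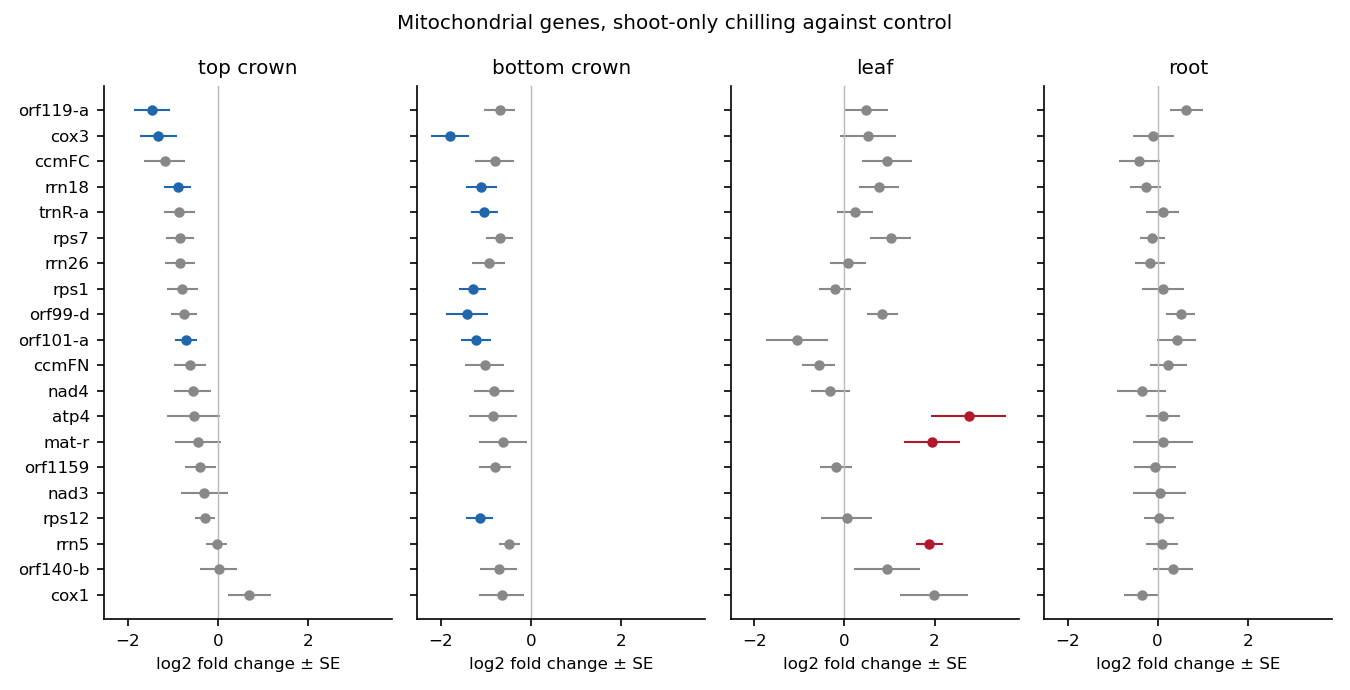
Log2 fold change of shoot-only chilling over control, with SE, for the 20 mitochondrial genes tested in the top crown, shown for top crown, bottom crown, leaf and root. Blue marks genes called lower and red genes called higher. In the top crown 18 of 20 lie below 0, and in leaf 3 are called higher.

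Of the plastid genes, 4 of 157 passed the filter and 1 was called. The atpF gene (ZemaCp019), a subunit of the chloroplast ATP synthase, fell to 0.198, 0.781 and 0.233 CPM in shoot-only libraries, against 1.92, 2.11 and 5.37 CPM in control libraries (-2.85, SE 0.64, edgeR adjusted p = 0.0037). These are low levels, and the call held whichever of the 6 libraries was left out. The transfer RNA gene trnK (ZemaCt121) had 13, 22.1 and 27.5 CPM and 17.0, 24.3 and 20.3 CPM (edgeR adjusted p = 0.97), and ycf3 (ZemaCp024) 0.791, 13.5 and 2.10 CPM and 10.2, 1.58 and 12.8 CPM (edgeR adjusted p = 0.73).

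ENSRNA features are the non-coding RNA entries of the annotation and could not be named either. They took 0.0634% to 0.0819% of counts in shoot-only libraries and 0.0431% to 0.0511% in control libraries. Of 1765 features 98 passed the filter on low counts. Of these 98, 45 were higher (45.9%, background 11.4%) and 4 lower (4.08%, background 12.5%), with a median of 1.26. The filter admits features that are almost silent in warm plants if cold raises them, which can lift the share called higher. Its part in this share, and in those of the other tissues, was not tested. The shares of counts cover all features, tested or not. The libraries of 52 did not overlap and lay higher, beside 19.9% of all genes. ENSRNA049460733 had 16.4, 25 and 29.4 CPM in shoot-only and 0.320, 0.351 and 0 CPM in control libraries (6.56, SE 0.51, edgeR adjusted p = 2.5e-07). Its level was higher under shoot-only than under whole-plant chilling, which gave 1.92 to 5.96 CPM (shoot-only over whole-plant 2.49, SE 0.34, edgeR adjusted p = 4.4e-05). ENSRNA049456692 had 68.0, 97.5 and 114 CPM in shoot-only and 21.1, 17.9 and 17.5 CPM in control libraries (2.30, SE 0.21, edgeR adjusted p = 1.5e-06), and 6.90 to 13.1 CPM under whole-plant chilling. It was thus higher than control under shoot-only chilling and lower under whole-plant chilling (-0.84, SE 0.24, edgeR adjusted p = 0.011). Set directly against whole-plant chilling, 19 of the 98 features were higher (19.4%, background 13.3%) and 31 lower (31.6%, background 12.5%) under shoot-only chilling. Against control, whole-plant chilling gave 51 of the 98 higher (52.0%, background 16.8%) and 7 lower in the top crown. Root-only chilling gave 37 higher (37.8%, background 17.8%) and 6 lower. More features rose than fell under shoot-only chilling in leaf and bottom crown as well. In leaf 84 of 118 were higher under shoot-only chilling (71.2%, background 15.2%) and 1 lower, with a median of 1.80. In bottom crown 41 of 121 were higher (33.9%, background 14.4%) and 6 lower, with a median of 0.69. In root 1 of 193 was higher (0.518%, background 9.63%) and 10 lower (5.18%, background 12.6%). By the interaction test against leaf, 6 of 144 features had a higher response in the top crown (4.17%, background 7.12%) and 28 a lower one (19.4%, background 8.6%). Against bottom crown 0 of 128 differed with edgeR, and 9 at an unadjusted p under 0.05, all 9 higher in the top crown. The share of all genes at that unadjusted level is not given. Against root 33 of 200 had a higher response in the top crown (16.5%, background 11.1%) and 1 a lower one. The 154 microRNA loci had 0 counts in the 6 libraries, and poly(A) priming does not capture mature microRNAs.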

How the data were processed

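For each of 48 maize libraries the authors deposited raw counts, whole numbers over 46430 identifiers. Trizol extraction, a QuantSeq 3′ kit and NextSeq500 sequencing are given per the labels' protocols. The submitters' processing notes name STAR and edgeR without versions. Neither the build nor the counting step, its strandedness or UMI use is given in the sources used here, so overlapping or antisense genes and near-identical copies are uncertain. The 4 deposited tables of normalized values were not used.

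The 12 top-crown libraries were fitted in edgeR 4.0.16 (R 4.3.3) with filterByExpr, TMM factors and robust quasi-likelihood fits of 4 condition means, with Benjamini-Hochberg adjustment at 0.05. SE is the size of the log2 change over the root of its F value, and intervals cover 95%. Other tissues were fitted alike, and interactions in fits of 24 libraries. Comparisons of the top crown with control share control libraries. Replicates of a group differed by at least 3.73 in chi-square per degree of freedom, so none was treated as a copy. The method was also run on counts simulated from its own estimates of spread, with changes in higher-level genes only. Such a run cannot show how well the model suits these libraries or low-count genes. DESeq2 1.42.0, other scalings, no filter, the 6 libraries alone, a replicate block and leaving out each library were tried.

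RefSeq names (Zm-B73-REFERENCE-NAM-5.0) were found for all organelle genes, for 153 of 154 microRNA loci, and for 0 nuclear models and 0 ENSRNA features. The 40 hand-written gene lists of pathways and cell types therefore had no tested member that could be matched. Groups came instead from other libraries: genes at least 8-fold enriched and at 10 CPM or more in an organ's control libraries, and genes called and changed at least 2-fold by shoot-only chilling elsewhere. The members, lists and groups were chosen with earlier results of these data known, and the crown-enriched group was added after the data were seen. Members were counted only where they passed the top crown's filter, and a gene can pass through chilled libraries alone.

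Identifiers without a name were taken by this rule: called, a group mean of 10 CPM or more, libraries that do not overlap, then the 2 largest rises and 2 largest falls. From the mitochondrial and plastid genes and ENSRNA features, a use of the rule on lists, came up to 4 called members with the lowest adjusted p (2 for ENSRNA, which have no names) and up to 2 of the highest level not called. Its use for whole-plant chilling and for interactions, where genes also had to be tested in both tissues, was added after values were seen, as were the other mitochondrial genes named for their interaction with leaf. P-values and intervals cover the spread between libraries. No coordinates or sequences are given, because the build is not known.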

Additional observations from a re-analysis of the deposited data

Results flagged for a closer look

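Differences between the response of the top crown and that of another tissue to shoot-only chilling, each tested as an interaction in edgeR, were the reason for a closer look at the following values, all of them log2 differences of the top-crown response minus the other response. Against leaf 3029 genes differed. Zm00001d008548 stood at 4.33, Zm00001d012791 at 3.66 and ENSRNA049460733 at 3.07, each higher in the top crown. The value of Zm00001d008548 was 1.65 without leaf control replicate 1 (edgeR adjusted p = 0.64), and its call was lost in 7 of the 12 fits that left out 1 library. Lower in the top crown were Zm00001d010529 at -2.0, Zm00001d042922 at -3.42, Zm00001d022636 at -8.48, Zm00001d039383 at -7.80, orf119-a (ZeamMp052) at -1.89 and orf99-d (ZeamMp050) at -1.56. The calls of orf119-a and orf99-d were each lost in 7 of 12 such fits.

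Against bottom crown 19 genes differed, among them Zm00001d044705 at 3.75 and Zm00001d019311 at 2.04, higher in the top crown, and Zm00001d015239 at -2.37 and Zm00001d044677 at -1.50, lower there. Of these 4, Zm00001d044705 kept its call in all 12 such fits, Zm00001d019311 lost it in 8, and the other 2 genes lost it in 5 each. Against root 3884 genes differed. Zm00001d011183 stood at 6.88, Zm00001d044705 at 5.58, ENSRNA049460733 at 8.06 and ENSRNA049456692 at 2.85, higher in the top crown, and Zm00001d010529 at -2.97, Zm00001d042922 at -7.31 and Zm00001d048073 at -6.89, lower there. No group of 4 or more libraries exists here, so single libraries were not tested for standing apart.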

How the results depend on the processing

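The count of genes changed in the top crown by shoot-only chilling was 2689 to 3618 when single libraries were left out, 4763 without the low-count filter, 4316 with DESeq2 size factors, 4102 in the 6 libraries alone and 4034 with DESeq2. Against whole-plant chilling it was 3047 to 4321. The interaction count against bottom crown was 65 without the filter, and 1 to 35 when single libraries were left out, against leaf 2400 to 2978 and against root 2790 to 3864. Libraries of whole-plant chilling and of the other tissues were left out in alternatives chosen after seeing the data. Higher calls made up 47.8% with TMM and 32.8% with library size alone, 52.4% with DESeq2 size factors and 53.9% with DESeq2. The trnK gene (ZemaCt121), not called, took the opposite sign with library size alone (-0.084) and without shoot-only replicate 2, shoot-only replicate 3 or control replicate 1, and ranged from -0.21 to 0.28 over the libraries left out. Calls of leaf-enriched genes fell to 257 and of genes fallen in root to 285 without shoot-only replicate 3, and called mitochondrial genes numbered 15 without the filter, 8 in the 6 libraries alone and 2 with DESeq2 size factors. Of the single-gene values under all alternatives, 393 kept direction and call, 69 lost the call and 5 gained one. The cause was not tested.

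Same-numbered shoot-only and control libraries of the top crown deviated from their group means with correlations of -0.07, -0.30 and -0.17. No pairing by number was thus seen between these groups. Whether same-numbered libraries of different tissues came from the same plants is not known and was not checked, and the interaction tests took them as separate. With a replicate block the counts were 4207 against control, 4503 against whole-plant chilling, 36 against bottom crown, 3206 against leaf and 4291 against root.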
